A study of Mus musculus with 16 samples.

Results

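The comparison here is of normal mouse retina at postnatal day 17 (P17, 3 libraries) with normal retina at postnatal day 14 (P14, 2 libraries), 5 of the 16 libraries of a study of oxygen-induced retinopathy (OIR), a model in which high oxygen stops vessel growth in the young retina. The libraries were taken by their age and condition labels alone, and no measured value entered the choice. All mice were wild-type C57BL/6J, and control mice of both ages stayed in room air (21% oxygen) throughout, with no other agent named. The OIR mice, used here only for the same change from P14 to P17 (2 and 3 libraries), breathed 75% oxygen between day 7 and day 12 and room air afterwards. Messenger RNA from whole retina lysate was sequenced, so a change in the share of a cell type and a change in RNA per cell cannot be told apart. The labels do not say how many mice or eyes stand behind a library or at what hour the eyes were taken, and p-values therefore measure the spread between libraries, part of which may be technical.

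Mice open their eyes at about the younger of these ages, when rods and cones are still lengthening the outer segments that hold the light-sensing cascade. In the same days bipolar cells complete their contacts with photoreceptors, Müller glia take on their support functions, and the deeper vessel layers fill in. Photoreceptors use most of the retina's energy, and much of it comes from glycolysis.

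Library totals were between 27369064 and 35483173 counts in the 5 control libraries. Each of the 12 retina markers checked, from Gnat1 of rods to Rlbp1 of Müller glia, was detected in all 5. The P14 libraries stand apart from each other in genes of other tissues. Xist, the RNA that silences an X chromosome, was at 0.157 and 913 CPM in P14 replicates 1 and 2, and the Y-linked Ddx3y was at 44.1 and 0.0758 CPM, while the P17 libraries had 0.0775, 0.0286 and 0.104 CPM of Xist and 33.3, 25.8 and 27.1 CPM of Ddx3y. P14 replicate 2 therefore differs from the other 4 libraries in its sex-linked genes. Crystallins and other lens genes took, of all counts, 0.19% and 0.011% at P14 and 0.0424%, 0.66% and 0.529% at P17, and edgeR called no lens gene of 23, where DESeq2 called 4. For the second P14 library the 95% Wilson interval of that share was 0.0106% to 0.0113%. P14 replicate 2 also holds far more RNA of smooth muscle, connective tissue and pigment genes than replicate 1, as described with the vessel genes. For many genes and lists, though not for all, results are also given without it, in a fit that leaves 1 library at P14.

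Of 19905 genes tested with the edgeR quasi-likelihood test, 3643 (18.3%) were higher and 4355 (21.9%) were lower at P17 at an adjusted p under 0.05. Together these were 40.2% of the tested genes, and 708 rose and 1576 fell by more than 2-fold. Where a list count below has no share beside it, 18.3% and 21.9% are the shares to set it against. Levels are given in CPM, counts per 1e6 counts scaled by library, and a log2 fold change is followed by ± and its standard error. Without regard to any test, every P17 library was above every P14 library in 5943 genes (29.9%) and below in 6499 (32.7%). Of the called genes, 3621 of the 3643 higher and 4319 of the 4355 lower were apart in this way. That the groups of a called gene do not overlap, as given below, therefore adds nothing to its call. Scaling by plain library totals gave 2464 genes higher and 5088 lower and moved the median log2 fold change of all genes from -0.003 to -0.12, so the balance of the directions depends on the scaling. An exact permutation test of a single gene in 2 against 3 libraries cannot give a two-sided p below 0.2, and the calls rest on the spread shared by all 16 libraries.

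Genes of rod phototransduction and the outer segment rose where they were called, with a single exception: 11 of 28 tested genes were higher and 1 lower. These are 39.3% and 3.57%, against 18.3% and 21.9% over all tested genes. The median log2 fold change was 0.26 against -0.003 over all tested genes. The lower gene was Gucy2f, a photoreceptor guanylate cyclase (log2 fold change -0.31 ± 0.12, adjusted p = 0.0437), chosen after its values were seen. The call was lost with either P14 library left out, and after the length and GC correction its log2 fold change was 0.11. Guca1a, a calcium sensor that switches on guanylate cyclase when light closes the channels, was at 110.2 and 124 CPM at P14 and 240.3, 267 and 222 CPM at P17 (log2 fold change 1.05 ± 0.14, adjusted p = 2.62e-05). Every P17 library was far above both P14 libraries, and in control retina at P30 Guca1a stood at 1009 to 1090.2 CPM. The second sensor, Guca1b, was at 597 and 632 CPM at P14 and 1154, 1337 and 1209 CPM at P17 (log2 fold change 1.01 ± 0.16, adjusted p = 0.000113). Prph2, which shapes the rims of outer segment discs, was at 4089 and 4113 CPM at P14 and 6152, 7803 and 6664 CPM at P17 (log2 fold change 0.74 ± 0.16, adjusted p = 0.00105). All P17 values lay above all P14 values in these 3 genes.

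Rdh12, which clears retinal from the outer segment, rose (log2 fold change 0.69 ± 0.13, adjusted p = 0.000385), as did the actin-bundling Fscn2 (log2 fold change 0.79 ± 0.14, adjusted p = 0.000297) and the rod transducin Gnat1 (log2 fold change 0.57 ± 0.17, adjusted p = 0.0144). Without P14 replicate 2, 6 genes of the list were called higher in place of 11. The call of Gnat1 was lost without P14 replicate 1 (log2 fold change 0.56, adjusted p = 0.0838), without P14 replicate 2 (log2 fold change 0.58, adjusted p = 0.0804) and without P17 replicate 2 (log2 fold change 0.37, adjusted p = 0.0604). It was lost with the Y-linked covariate as well (log2 fold change 0.47, adjusted p = 0.0551).

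Cone genes moved the same way where they were called: 5 of 14 tested genes were higher and 0 lower (median 0.22). These are 35.7% and 0%, against 18.3% and 21.9% over all tested genes. Pde6h, the inhibitory subunit of the cone phosphodiesterase, was at 80.4 and 73.4 CPM at P14 and 165, 177 and 148 CPM at P17 (log2 fold change 1.09 ± 0.14, adjusted p = 1.26e-05). Opn1mw, the green-sensitive cone pigment, was at 131 and 126 CPM at P14 and 198, 238 and 187 CPM at P17 (log2 fold change 0.69 ± 0.15, adjusted p = 0.00127). The cone transducin Gnat2 was at 100.04 and 92.9 CPM at P14 and 140.1, 179 and 124 CPM at P17 (log2 fold change 0.61 ± 0.13, adjusted p = 0.00156). Groups did not overlap for any of the 3 genes. Opn1sw, the short-wavelength pigment, was higher by 0.50 (SE 0.14, adjusted p = 0.00777), a call that is lost without P14 replicate 2 (log2 fold change 0.34, adjusted p = 0.15). Cone arrestin Arr3 overlapped between ages, at 78.9 and 93.5 CPM at P14 and 83.9, 63.1 and 72.6 CPM at P17, and was not called, though with the length and GC correction it was lower (log2 fold change -0.52, adjusted p = 0.00716).

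**Figure D1:**
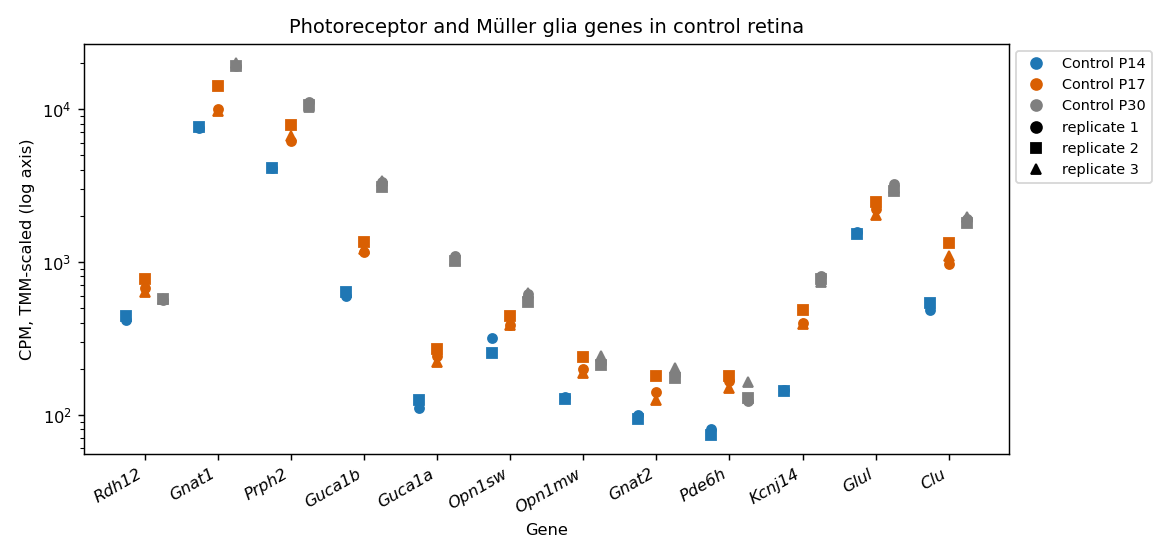
CPM on a log axis of 12 genes of rods, cones, photoreceptor potassium transport and Müller glia in the control libraries, 1 point per library, with colour for age and shape for replicate. For the genes Guca1a, Prph2, Pde6h and Clu every P17 point lies above both P14 points, and the P30 points are drawn for reference without a test.

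CRX and OTX2, the homeodomain factors that switch on photoreceptor genes, bind sites that contain TAATCC, and clock factors bind the E-box CACGTG. Promoter windows from RefSeq (build GRCm38.p6, 250 bases before to 50 after a transcription start) were searched for both motifs on both strands. TAATCC was found in 7.06% of 32851 windows. It was in 8 of 19 windows of the rod list, which matched 19 of its genes, and in 2 of 13 windows of the cone list, which matched 9 genes. Of the 5 matched rod genes that were called higher, only Guca1a held it. It was also in the window of Gucy2f, which was called lower, and in 6 of 13 windows of rod genes not called. A pair of photoreceptor windows with the motif, 1 match each, is shown because their genes rose: that of Guca1a (chr17:47400557-47400856, minus strand) and that of Gnat2 (chr3:108092816-108093115, plus strand), with the match in capitals.
Guca1a: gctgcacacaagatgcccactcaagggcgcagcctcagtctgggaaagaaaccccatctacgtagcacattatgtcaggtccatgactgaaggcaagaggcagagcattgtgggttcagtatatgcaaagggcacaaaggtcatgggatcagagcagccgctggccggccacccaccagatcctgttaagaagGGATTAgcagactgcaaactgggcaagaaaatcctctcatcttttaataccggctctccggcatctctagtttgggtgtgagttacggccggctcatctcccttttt
Gnat2: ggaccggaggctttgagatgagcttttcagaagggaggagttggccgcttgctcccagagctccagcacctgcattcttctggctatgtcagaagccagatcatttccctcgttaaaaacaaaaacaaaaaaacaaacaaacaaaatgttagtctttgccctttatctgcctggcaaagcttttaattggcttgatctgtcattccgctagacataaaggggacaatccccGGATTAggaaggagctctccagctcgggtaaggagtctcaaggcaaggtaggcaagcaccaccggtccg
In both windows the match is written as its reverse complement, GGATTA. A match describes the letters of the window and says nothing of whether a factor binds there.

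Transcription factors of photoreceptors moved down more often than up: 3 of 14 tested genes were higher and 8 lower (median -0.38). Casz1, a zinc finger factor of retinal progenitors and photoreceptors, was at 401 and 392 CPM at P14 and 158, 164 and 183 CPM at P17 (log2 fold change -1.23 ± 0.18, adjusted p = 6.63e-05). Samd11, a rod-enriched repressor, was at 758 and 941 CPM at P14 and 445, 456 and 432 CPM at P17 (log2 fold change -0.93 ± 0.11, adjusted p = 8.95e-06). In both genes each P17 value was below each P14 value. Prdm1, which steers new photoreceptors away from the bipolar fate, fell (log2 fold change -0.84 ± 0.16, adjusted p = 0.000656), as did Mef2d (log2 fold change -0.80 ± 0.094, adjusted p = 5.7e-06), while the related Mef2c rose from 9.32 and 9.53 CPM to 15, 15.1 and 14.7 CPM (log2 fold change 0.66 ± 0.11, adjusted p = 0.000197). Crx itself overlapped between the ages, with 1126 and 1099 CPM at P14 and 1081, 1356 and 1125 CPM at P17. Nrl, the factor that sets rod identity, was higher by 0.41 (SE 0.15, adjusted p = 0.0391), a call lost with each P14 library left out in turn, without P17 replicate 2 (log2 fold change 0.22, adjusted p = 0.189) and in a fit of the 5 control libraries alone (adjusted p = 0.0543). With either P14 library left out, 1 gene of the list was higher and 6 were lower.

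The visual cycle, which returns 11-cis retinal to photoreceptors, had 7 of 12 tested genes higher and 0 lower (median 0.53). These are 58.3% and 0%, against 18.3% and 21.9% over all tested genes. Rpe65, the isomerase of the retinal pigment epithelium, was at 30.5 and 18.1 CPM at P14 and 70.3, 62.8 and 91.7 CPM at P17 (log2 fold change 1.62 ± 0.35, adjusted p = 0.00307), and at P30 the control libraries had 12.1 to 16 CPM. Rgr was at 88.2 and 55.8 CPM at P14 and 198, 182 and 224 CPM at P17 (log2 fold change 1.48 ± 0.37, adjusted p = 0.00721) and Lrat at 20.4 and 11.1 CPM at P14 and 31.8, 26.4 and 36.9 CPM at P17 (log2 fold change 1.01 ± 0.28, adjusted p = 0.0106). P14 replicate 2 was the lowest library for all 3 of these genes, and without it Rgr (log2 fold change 1.19, adjusted p = 0.0768) and Lrat (log2 fold change 0.63, adjusted p = 0.135) were no longer called and 3 genes of the list were higher. The 14 genes of the pigment epithelium list took, of all counts, 0.0347% and 0.165% at P14 and 0.0575%, 0.0627% and 0.064% at P17, and their part in the result was not tested. Rlbp1, which is shared by Müller glia and pigment epithelium, was at 422 and 381 CPM at P14 and 595, 650.01 and 635 CPM at P17 (log2 fold change 0.64 ± 0.11, adjusted p = 0.000186).

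Bipolar cell genes were split: 5 of 20 tested genes were higher and 5 lower, which is 25% in each direction, against 18.3% higher and 21.9% lower over all tested genes. Several genes of the ON pathway were among the lower ones. Grm6, the glutamate receptor of ON bipolar dendrites, was at 352 and 403 CPM at P14 and 150.2, 124 and 137 CPM at P17 (log2 fold change -1.46 ± 0.14, adjusted p = 5.41e-07). Gpr179, which anchors the regulators of that receptor, was at 237 and 254 CPM at P14 and 99.7, 107 and 99.5 CPM at P17 (log2 fold change -1.27 ± 0.13, adjusted p = 1.56e-06). In both genes all P17 libraries were far below both P14 libraries. Rgs11, the GTPase activator of the pathway, fell by 1.09 (SE 0.12, adjusted p = 4.27e-06) and the channel Trpm1 was at 443 and 598 CPM at P14 and 307, 312 and 306 CPM at P17 (log2 fold change -0.75 ± 0.13, adjusted p = 0.000214). The homeobox gene Sebox went up (log2 fold change 0.78 ± 0.13, adjusted p = 0.000156).

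Several genes of the photoreceptor ribbon synapse fell as well, within a list that had 5 of 30 tested genes higher and 9 lower. These are 16.7% and 30%, against 18.3% and 21.9% over all tested genes. Cacna1f, the calcium channel that drives glutamate release from photoreceptors, was at 446 and 524 CPM at P14 and 166, 153 and 144 CPM at P17 (log2 fold change -1.65 ± 0.11, adjusted p = 2.76e-08). Bsn, the scaffold bassoon, was at 154 and 137 CPM at P14 and 47.9, 49.9 and 52.9 CPM at P17 (log2 fold change -1.53 ± 0.25, adjusted p = 0.000331). The groups were well apart in both. The channel subunit Cacna2d4 (log2 fold change -0.75 ± 0.11, adjusted p = 3.47e-05) and the protocadherin Pcdh15 (log2 fold change -1.13 ± 0.14, adjusted p = 1.24e-05) were also lower. Cplx3, a complexin of ribbon synapses, was higher (log2 fold change 0.84 ± 0.15, adjusted p = 0.000247). Without P14 replicate 2 the list had 2 genes higher and 6 lower.

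Amacrine and horizontal cell genes had 5 of 21 tested genes higher and 9 lower (23.8% and 42.9%, against 18.3% and 21.9% over all tested genes). The list had 4 higher and 5 lower without P14 replicate 1, and 2 and 7 without P14 replicate 2. The transcription factors Tfap2a (log2 fold change -0.88 ± 0.12, adjusted p = 2.04e-05), Tfap2b (log2 fold change -0.64 ± 0.12, adjusted p = 0.000346) and Onecut2 (log2 fold change -1.02 ± 0.19, adjusted p = 0.000373) were lower. Onecut2 was no longer called after correction for transcript length and GC content (-0.23, adjusted p = 0.423), and the list then had 7 genes higher and 4 lower. Calbindin, Calb1, of horizontal and amacrine cells was higher (log2 fold change 0.76 ± 0.16, adjusted p = 0.00136), and Gad1, the GABA-synthesising enzyme, overlapped between ages. The ganglion cell list had 4 of 17 tested genes higher and 2 lower (23.5% and 11.8%, against the same 18.3% and 21.9%). Sncg, a synuclein enriched in ganglion cells, was at 101 and 88.6 CPM at P14 and 176, 198 and 152 CPM at P17 (log2 fold change 0.89 ± 0.12, adjusted p = 1.97e-05). The nicotinic receptor subunit Chrna6 was at 110.03 and 97.8 CPM at P14 and 159.6, 183 and 165 CPM at P17 (log2 fold change 0.70 ± 0.12, adjusted p = 0.000242). The neurofilament Nefl was higher at P17 (log2 fold change 0.43 ± 0.13, adjusted p = 0.0107), though not without P14 replicate 2 (0.32, adjusted p = 0.153).

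Transmitter receptor channels had 5 of 30 tested genes higher and 5 lower. This is 16.7% in each direction, not above the 18.3% and 21.9% over all tested genes. The list had 8 higher and 3 lower without P14 replicate 1, and 1 and 4 without P14 replicate 2. The AMPA subunit Gria2 was at 129 and 122 CPM at P14 and 56.4, 38.4 and 53.4 CPM at P17 (log2 fold change -1.35 ± 0.15, adjusted p = 4.22e-06). The NMDA subunit Grin2d was at 24.6 and 21 CPM at P14 and 9.37, 11.9 and 9.55 CPM at P17 (log2 fold change -1.15 ± 0.16, adjusted p = 2.88e-05). Both were lower in every P17 library. Grin2b, the NMDA subunit of immature synapses, was at 19.2 and 17.6 CPM at P14 and 9.68, 11.3 and 12.2 CPM at P17 (log2 fold change -0.74 ± 0.22, adjusted p = 0.0146), and its log2 fold change turned to 0.27 after correction for transcript length and GC content. Its call was also lost without P14 replicate 1 (log2 fold change -0.68, adjusted p = 0.0902) and without P17 replicate 1 (log2 fold change -0.65, adjusted p = 0.0549). Sodium, potassium and chloride transport genes had 3 of 24 tested genes higher and 9 lower. Kcnj14, an inward rectifier potassium channel, was at 144 and 142 CPM at P14 and 399, 485 and 389 CPM at P17 (log2 fold change 1.57 ± 0.14, adjusted p = 3.88e-07), with the P17 libraries far above the P14 libraries, and P30 libraries had 732 to 807 CPM. The chloride importer Slc12a2 fell (log2 fold change -0.76 ± 0.15, adjusted p = 0.000587). The chloride exporter Slc12a5 was at 897 and 889.8 CPM at P14 and 633, 572 and 665 CPM at P17 (log2 fold change -0.52 ± 0.11, adjusted p = 0.00104), a call lost with the length and GC correction (-0.053, adjusted p = 0.711). With that correction the transport list had 10 genes higher and 3 lower and the receptor list 10 higher and 3 lower.

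Müller glia genes rose far more often than they fell: 13 of 19 tested genes were higher and 1 lower, with a median of 0.48. Clu, the secreted chaperone clusterin, was at 481 and 533 CPM at P14 and 961, 1328 and 1090.1 CPM at P17 (log2 fold change 1.15 ± 0.17, adjusted p = 5.34e-05). Glul, which turns glutamate into glutamine, was at 1556 and 1513 CPM at P14 and 2223, 2449 and 2019 CPM at P17 (log2 fold change 0.54 ± 0.11, adjusted p = 0.00123). Dkk3, a secreted protein of the Dickkopf family, was at 536 and 526 CPM at P14 and 828, 914 and 853 CPM at P17 (log2 fold change 0.70 ± 0.12, adjusted p = 0.000147). In these 3 genes the lowest P17 library was above the highest P14 library. The water channels Aqp4 (log2 fold change 0.52 ± 0.13, adjusted p = 0.00391) and Aqp11 (log2 fold change 0.84 ± 0.14, adjusted p = 0.00016) and the carbonic anhydrase Car2 (log2 fold change 0.72 ± 0.13, adjusted p = 0.00025) rose too. Leaving out either P14 library left 11 or 10 genes of this list higher. Gfap, the filament of reactive glia and astrocytes, was at 16.4 and 12.7 CPM at P14 and 36.5, 28 and 22.6 CPM at P17 and missed the threshold of the edgeR test (log2 fold change 1.00 ± 0.37, adjusted p = 0.0514). Gfap was called higher by DESeq2 (adjusted p = 0.0216), in fits of the 5 (adjusted p = 0.00579) and 8 control libraries (adjusted p = 0.00299), with either other count filter, with the lens covariate and without P17 replicate 3. The glial reactivity list had 1 of 20 tested genes higher and 1 lower.

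Genes of immature neurons were split: 5 of 28 tested genes were higher and 7 lower (17.9% and 25%). These shares are near the 18.3% and 21.9% over all tested genes. The list had 5 higher and 4 lower without P14 replicate 1, and 2 and 7 without P14 replicate 2. Dcx, the microtubule protein of migrating young neurons, was at 16.7 and 14.5 CPM at P14 and 6.33, 5.21 and 6.82 CPM at P17 (log2 fold change -1.35 ± 0.17, adjusted p = 1.5e-05). Sox11, a factor of newborn neurons, was at 5.43 and 5 CPM at P14 and 1.83, 2 and 2.46 CPM at P17 (log2 fold change -1.32 ± 0.25, adjusted p = 0.000435). Both were lower in every P17 library than in either P14 library, and at P30 they were at 1.75 to 2.24 CPM and 0.803 to 0.921 CPM. Stmn1 (log2 fold change 1.04 ± 0.16, adjusted p = 6.94e-05), a regulator of microtubules, and Tuba1a (log2 fold change 0.98 ± 0.16, adjusted p = 0.000126), a tubulin of growing axons, were instead higher. Axon guidance genes fell more often than they rose: 2 of 33 tested genes were higher and 16 lower (median -0.34). Robo3, a receptor of midline crossing, was at 7.23 and 8.31 CPM at P14 and 2.43, 1.49 and 2.04 CPM at P17 (log2 fold change -1.96 ± 0.20, adjusted p = 1.49e-06). Sema5b was at 54.1 and 52.1 CPM at P14 and 26.6, 31.2 and 27.9 CPM at P17 (log2 fold change -0.89 ± 0.09, adjusted p = 1.36e-06). With the correction for length and GC content the guidance list had 7 genes higher and 5 lower.

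Neuronal RNA-binding and splicing genes fell where they were called: 0 of 16 tested genes were higher and 9 lower (median -0.28). Srrm4, which drives the neuronal and photoreceptor splicing programme, was at 163 and 159 CPM at P14 and 52.1, 48.8 and 58.8 CPM at P17 (log2 fold change -1.6 ± 0.14, adjusted p = 3.2e-07). Nova2, a splicing factor of neurons, was at 54.1 and 49.8 CPM at P14 and 18.5, 21.1 and 19 CPM at P17 (log2 fold change -1.41 ± 0.13, adjusted p = 7.15e-07). No P17 library reached a P14 library in either gene, and 6 genes of the list were lower after the length and GC correction. Imprinted genes of growth had 1 of 22 tested genes higher and 10 lower (median -0.61), among them Plagl1 (log2 fold change -1.25 ± 0.11, adjusted p = 3.12e-07) and Peg3 (log2 fold change -1.48 ± 0.20, adjusted p = 4.15e-05). The maternally expressed long RNA Meg3 was at 1183 and 1384 CPM at P14 and 168, 55.6 and 132 CPM at P17 (log2 fold change -3.44 ± 0.40, adjusted p = 6.05e-05). Meg3 is also among the nuclear-retained RNAs that are given below beside Neat1. Chromatin genes had 4 of 20 tested genes higher and 11 lower, with Tet3, which oxidises methylated cytosine, at 306 and 285 CPM at P14 and 137, 114 and 145 CPM at P17 (log2 fold change -1.16 ± 0.22, adjusted p = 0.000872) and the histone variant H2afz at 53.2 and 51 CPM at P14 and 134, 131 and 159 CPM at P17 (log2 fold change 1.44 ± 0.14, adjusted p = 1.13e-06). After the length and GC correction this list had 4 genes higher and 5 lower, and without P14 replicate 1 it had 2 higher and 5 lower. Cell division genes were called less often than all tested genes, with 4.17% higher and 8.33% lower against 18.3% and 21.9%. Of 24 cell division genes, 1 was higher (Pcna, log2 fold change 1.09 ± 0.17, adjusted p = 0.000105) and 2 lower (Ccna2, log2 fold change -1.88 ± 0.26, adjusted p = 4.87e-05, and Mki67, log2 fold change -1.32 ± 0.38, adjusted p = 0.0112). Mki67 was low in every library, at 1.67 and 2.15 CPM at P14 and 0.697, 0.487 and 1.14 CPM at P17. The call of Mki67 was lost without P14 replicate 2 (adjusted p = 0.0986), without P17 replicate 2 (adjusted p = 0.0504) and with the length and GC correction (log2 fold change -0.79, adjusted p = 0.086).

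**Figure D2:**
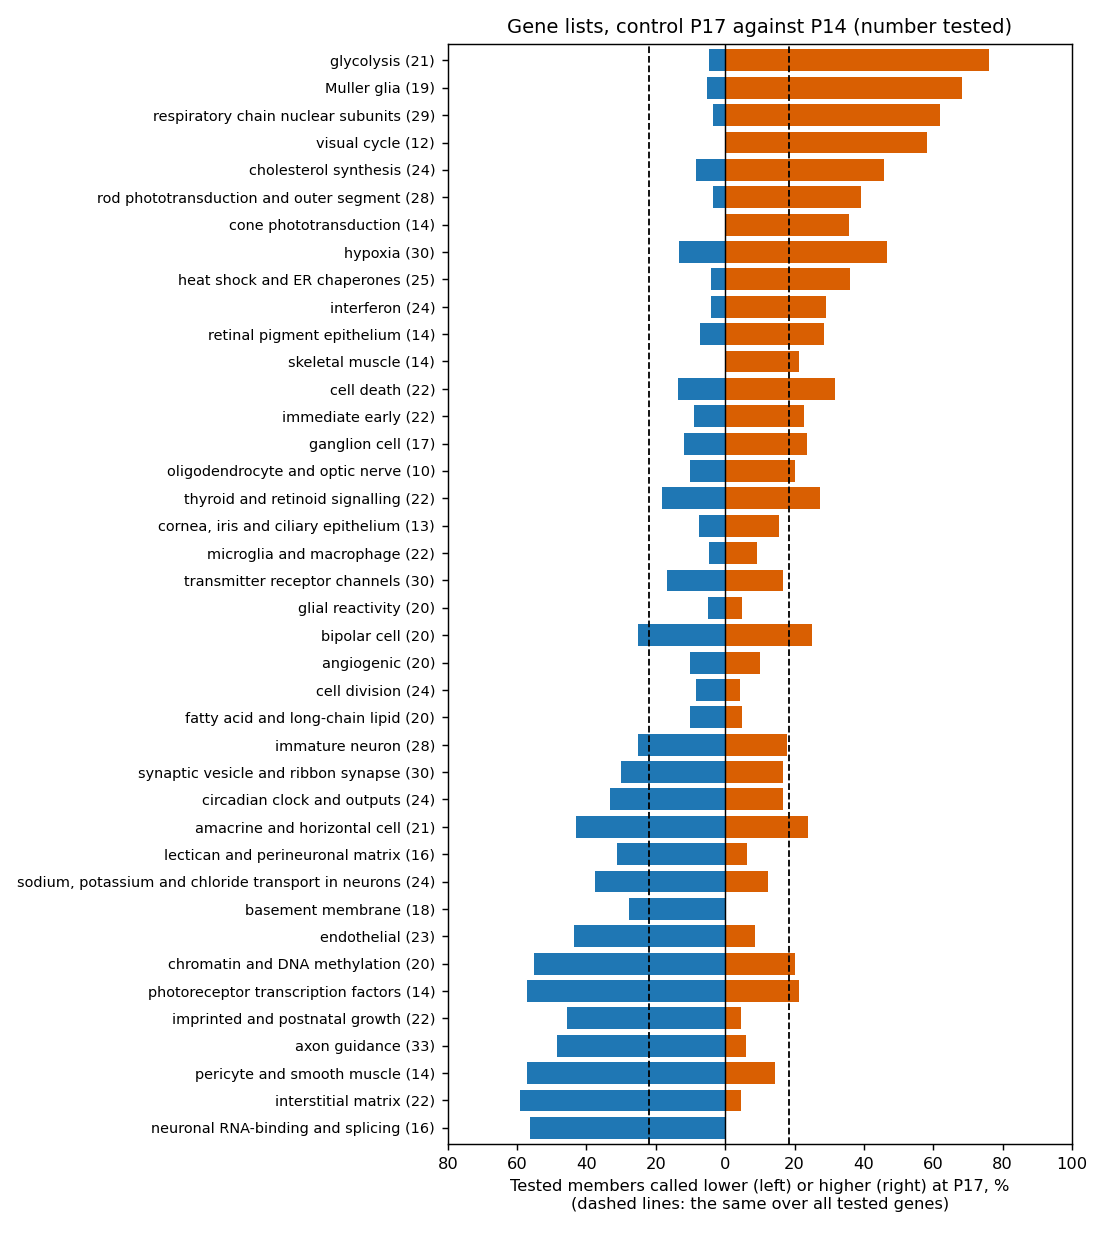
Percent of the tested members of each gene list called higher (right, orange) or lower (left, blue) at P17, with dashed lines at 18.3% and 21.9%, the shares over all tested genes. Lists with under 10 tested genes and the lens and sex-linked lists are not drawn. Glycolysis, Müller glia and respiratory chain subunits stand farthest to the right of the line, and matrix, pericyte and photoreceptor transcription factor lists farthest to the left.

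Genes of glycolysis rose with few exceptions: 16 of 21 tested genes were higher and 1 lower, with a median of 0.54. Gapdh was at 1217 and 982 CPM at P14 and 2701, 4133 and 2803 CPM at P17 (log2 fold change 1.55 ± 0.19, adjusted p = 8.46e-06). Pgk1 was at 115 and 96.1 CPM at P14 and 278, 387 and 315 CPM at P17 (log2 fold change 1.63 ± 0.16, adjusted p = 1.16e-06). Pgam1 was at 156 and 149.6 CPM at P14 and 355, 462 and 377 CPM at P17 (log2 fold change 1.38 ± 0.13, adjusted p = 7.4e-07). Each of the 3 enzymes of the lower pathway was higher in every P17 library, and P17 replicate 2 was the highest. Reads of Gapdh and Pgk1 may be shared with their processed pseudogenes. Pfkp, the platelet form of phosphofructokinase, moved the other way (log2 fold change -0.96 ± 0.13, adjusted p = 2.39e-05). Nuclear-encoded subunits of the respiratory chain had 18 of 29 tested genes higher and 1 lower (median 0.58). Cox7a2 was at 50.2 and 50.2 CPM at P14 and 129.8, 144 and 129 CPM at P17 (log2 fold change 1.42 ± 0.17, adjusted p = 1.07e-05), cytochrome c (Cycs) at 22 and 20.8 CPM at P14 and 43.6, 49.3 and 36.6 CPM at P17 (log2 fold change 1.01 ± 0.14, adjusted p = 3.71e-05), and Uqcrc2 at 85.3 and 87.9 CPM at P14 and 155, 143 and 136 CPM at P17 (log2 fold change 0.74 ± 0.12, adjusted p = 0.000186). With the length and GC correction the respiratory list had 13 genes higher and 4 lower, while the glycolysis list had 19 higher and 1 lower.

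Hypoxia-responsive genes had 14 of 30 tested genes higher and 4 lower (median 0.44), but the list shares members with glycolysis, and its best-known member went down. Vegfa, the main vessel growth factor of the retina, was at 254 and 277 CPM at P14 and 139.7, 126 and 132 CPM at P17 (log2 fold change -1.0 ± 0.16, adjusted p = 0.000175). Both P14 libraries were far above all P17 libraries. Bnip3, a mitophagy receptor, was at 44.4 and 37.9 CPM at P14 and 85.8, 103 and 82.5 CPM at P17 (log2 fold change 1.14 ± 0.15, adjusted p = 2.02e-05). The lactate exporter Slc16a3 was at 39.5 and 44 CPM at P14 and 76.6, 99.9 and 71.6 CPM at P17 (log2 fold change 0.99 ± 0.16, adjusted p = 0.00016). Without P14 replicate 2 the hypoxia list had 9 genes higher and 1 lower. Cholesterol synthesis genes had 11 of 24 tested genes higher and 2 lower (median 0.13), with Fdps (log2 fold change 1.01 ± 0.20, adjusted p = 0.00107), Idi1 (log2 fold change 0.76 ± 0.15, adjusted p = 0.000873) and Msmo1 (log2 fold change 0.61 ± 0.1, adjusted p = 0.000132) higher and Tm7sf2 (log2 fold change -0.61 ± 0.12, adjusted p = 0.000609) lower, and 6 higher and 2 lower without P14 replicate 2. Chaperones had 9 of 25 tested genes higher and 1 lower, among them Hspa8 (log2 fold change 1.04 ± 0.18, adjusted p = 0.000181) and Dnajb1 (log2 fold change 0.68 ± 0.09, adjusted p = 2.2e-05).

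Endothelial genes fell more often than they rose: 2 of 23 tested genes were higher and 10 lower (median -0.39). Kdr, the receptor of vessel growth factor, was at 259 and 226 CPM at P14 and 161, 161 and 172 CPM at P17 (log2 fold change -0.56 ± 0.10, adjusted p = 0.000346). Cdh5, the endothelial cadherin, was at 26.4 and 25.3 CPM at P14 and 12.8, 14.5 and 12.8 CPM at P17 (log2 fold change -0.95 ± 0.20, adjusted p = 0.00124). Sox17, a factor of arterial endothelium, was at 4.07 and 4.78 CPM at P14 and 1.5, 1.37 and 1.7 CPM at P17 (log2 fold change -1.54 ± 0.21, adjusted p = 3.21e-05). In these 3 genes every P17 library was below every P14 library, with the P14 libraries close together. Cldn5, the claudin of the blood-retina barrier, was at 70.5 and 68.1 CPM at P14 and 71.1, 106 and 78 CPM at P17 and was not called. Haemoglobin and other red blood cell genes took, of all counts, 0.00529% and 0.0109% at P14 and 0.0343%, 0.0416% and 0.0243% at P17, and their part in the result was not tested. Without P14 replicate 2 the endothelial list had 1 gene higher and 6 lower. At P30 Cdh5 stood at 3.61 to 5.62 CPM and Cldn5 at 21.8 to 24.4 CPM.

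Interstitial matrix, pericyte and smooth muscle genes were also more often lower than higher, and here the P14 libraries disagree. The matrix list had 1 of 22 tested genes higher and 13 lower (median -0.87), and the pericyte and smooth muscle list had 2 of 14 tested genes higher and 8 lower (median -0.71). Without P14 replicate 2 the matrix list had 0 genes higher and 3 lower and the pericyte list 1 higher and 2 lower. Vtn, vitronectin, rose and was at 451 and 463 CPM at P14 and 845, 1234 and 984 CPM at P17 (log2 fold change 1.16 ± 0.20, adjusted p = 0.000204). The pericyte and smooth muscle list as a whole took, of all counts, 0.0756% and 0.0936% at P14 and 0.111%, 0.142% and 0.123% at P17, a share that was higher in every P17 library. Most of it was Vtn, with 17268 of 25906 and 18326 of 32368 list counts at P14. At P17 Vtn had 32738 of 39558, 43108 of 50169 and 28415 of 33631. The higher share therefore says nothing of the other members. Myh11, the smooth muscle myosin, was at 2.58 and 58.1 CPM at P14 and 1.01, 1.43 and 0.831 CPM at P17 (log2 fold change -4.79 ± 1.05, adjusted p = 0.00433). Collagen Col3a1 was at 8.59 and 39.5 CPM at P14 and 5.16, 6.07 and 6.02 CPM at P17 (log2 fold change -2.06 ± 0.49, adjusted p = 0.00584). In both genes the second P14 library stood above all other control libraries of these ages. Acta2, the smooth muscle actin, chosen after its values were seen, was at 6.45 and 68.4 CPM at P14 and 4.96, 6.16 and 7.23 CPM at P17, and leaving out P14 replicate 2 took Acta2 (log2 fold change -0.084), Myh11 (-1.24) and Col3a1 (-0.58) below the threshold. With limma-voom the calls of Myh11 (adjusted p = 0.113) and Acta2 (adjusted p = 0.167) were also lost. Those of Myh11, Acta2 and Col3a1 were lost in a fit of the 5 control libraries alone and with the lens covariate. With the Y-linked covariate Myh11 and Acta2 were not called. Acta2 kept its call in 8 of 19 alternative settings. The pigment genes Pmel, Dct and Tyrp1, also chosen after their values were seen, were high in the same library and were not called by edgeR. DESeq2 called Tyrp1 lower (log2 fold change -1.89, adjusted p = 0.0192), edgeR called Tyrp1 lower with library totals, the stricter count filter and the length and GC correction, and all 3 were called with no count filter. Pmel was at 38.4 and 497 CPM at P14 and 43.9, 97.4 and 43.3 CPM at P17. Dct was at 63.5 and 361 CPM at P14 and 88.6, 128 and 101 CPM at P17. Tyrp1 was at 13.6 and 145 CPM at P14 and 17.8, 25.5 and 20.1 CPM at P17.

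Fn1, fibronectin, and Col6a1 did not follow that pattern. Fn1 was at 163 and 166 CPM at P14 and 44.5, 51.3 and 43.4 CPM at P17 (log2 fold change -1.83 ± 0.23, adjusted p = 4.59e-05). Col6a1 was at 107 and 118 CPM at P14 and 30.6, 14.6 and 25.1 CPM at P17 (log2 fold change -2.27 ± 0.27, adjusted p = 3.16e-05). For both genes the P14 libraries were close together and every P17 library was far below them. Agrn, a heparan sulfate proteoglycan of basement membranes, was at 319 and 335 CPM at P14 and 129.6, 95.6 and 151 CPM at P17 (log2 fold change -1.38 ± 0.16, adjusted p = 5.79e-06). Of 18 basement membrane genes, 5 were lower and 0 higher (27.8% and 0%, against 21.9% and 18.3% over all tested genes). The list had 0 higher and 7 lower without P14 replicate 1, and 0 and 3 without P14 replicate 2. Lectican and perineuronal matrix genes had 1 of 16 tested genes higher and 5 lower (6.25% and 31.2%). Both the lectican and the basement membrane list hold long transcripts, as given below with the transcript lengths. Neither angiogenic genes (2 of 20 tested genes higher and 2 lower) nor fatty acid genes (1 of 20 tested genes higher and 2 lower) had more than 2 calls in a direction. Their shares, 10% and 10% for angiogenic and 5% and 10% for fatty acid genes, were below those over all tested genes. Other cells and tissues that a dissection can carry had 4 of 14 tested genes higher and 1 lower for pigment epithelium, 3 of 14 tested genes higher and 0 lower for skeletal muscle, 2 of 10 tested genes higher and 1 lower for oligodendrocytes, 3 of 9 tested genes higher and 2 lower for astrocytes, 2 of 13 tested genes higher and 1 lower for cornea and iris, and 1 of 6 tested genes higher and 0 lower for red blood cells. In that order the shares higher were 28.6%, 21.4%, 20%, 33.3%, 15.4% and 16.7%, against 18.3% over all tested genes. Those lower were 7.14%, 0%, 10%, 22.2%, 7.69% and 0%, against 21.9%.

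**Figure D3:**
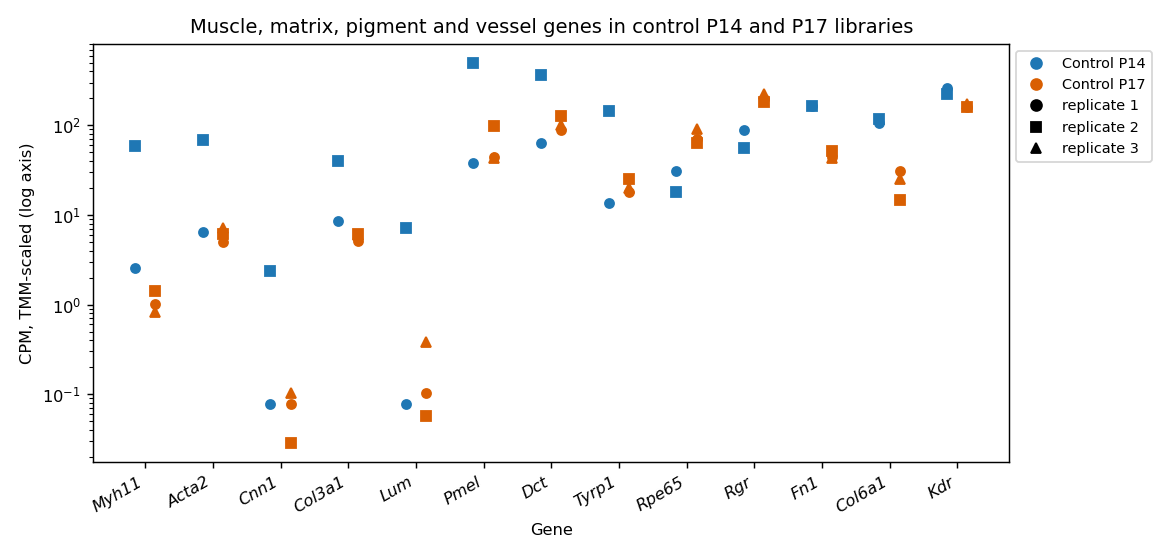
CPM on a log axis of smooth muscle, matrix, pigment, pigment epithelium and vessel genes in the 2 P14 and 3 P17 control libraries, 1 point per library, with colour for age and shape for replicate. P14 replicate 2 (square) is alone at the top for Myh11, Acta2, Col3a1 and Pmel, while for Fn1, Col6a1 and Kdr the P14 libraries lie together above the P17 libraries.

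Clock genes and their outputs had 4 of 24 tested genes higher and 8 lower (16.7% and 33.3%, against 18.3% and 21.9% over all tested genes). The list had 3 higher and 4 lower without P14 replicate 1, and 2 and 6 without P14 replicate 2. Among the repressors of the clock, Per1 was at 108 and 117 CPM at P14 and 58.2, 63 and 59.6 CPM at P17 (log2 fold change -0.90 ± 0.14, adjusted p = 6.73e-05). Per2 was at 29.8 and 31.6 CPM at P14 and 17.8, 14.1 and 20.5 CPM at P17 (log2 fold change -0.82 ± 0.17, adjusted p = 0.00107). Per3 was at 98.5 and 108 CPM at P14 and 58.1, 39.1 and 57.6 CPM at P17 (log2 fold change -1.0 ± 0.22, adjusted p = 0.00227). All of these were lower at P17. The output factors Dbp (log2 fold change 0.47 ± 0.11, adjusted p = 0.00197) and Tef (log2 fold change 0.41 ± 0.094, adjusted p = 0.00234) were higher. Groups did not overlap in these 5 genes, and the P30 libraries had 119 to 139.8 CPM of Per1. The E-box CACGTG was in 7 of 25 windows of 20 matched clock genes and in 7.15% of all windows. The windows of Per1 (chr11:69098699-69098998, plus strand), a gene that fell, and of Tef (chr15:81802423-81802722, plus strand), a gene that rose, are shown because both hold the motif, in capitals.
Per1: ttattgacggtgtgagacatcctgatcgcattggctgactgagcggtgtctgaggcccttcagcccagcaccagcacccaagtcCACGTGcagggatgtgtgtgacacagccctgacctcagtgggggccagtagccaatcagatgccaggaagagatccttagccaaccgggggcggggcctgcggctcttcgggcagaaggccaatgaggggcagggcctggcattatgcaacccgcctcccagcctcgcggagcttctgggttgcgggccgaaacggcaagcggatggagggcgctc
Tef: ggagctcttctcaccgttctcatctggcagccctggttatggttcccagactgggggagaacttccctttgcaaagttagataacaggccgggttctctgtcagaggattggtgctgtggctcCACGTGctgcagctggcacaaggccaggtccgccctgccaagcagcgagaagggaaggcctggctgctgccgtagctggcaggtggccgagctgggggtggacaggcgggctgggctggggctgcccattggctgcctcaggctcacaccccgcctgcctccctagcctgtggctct
In both the match stands before the start site.

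Immediate early genes had 5 of 22 tested genes higher and 2 lower (22.7% and 9.09%, against 18.3% and 21.9% over all tested genes). Fos was at 17.4 and 20.3 CPM at P14 and 34.8, 34.6 and 32.3 CPM at P17 (log2 fold change 0.85 ± 0.26, adjusted p = 0.0186). Dusp1 was at 17 and 17.5 CPM at P14 and 29.1, 28.6 and 33.2 CPM at P17 (log2 fold change 0.81 ± 0.15, adjusted p = 0.00044). The call of Fos was lost with either P14 library left out and with the length and GC correction (adjusted p = 0.0611), and the list had 2 genes higher and 0 lower without P14 replicate 2. Genes of thyroid hormone and retinoid handling had 6 of 22 tested genes higher and 4 lower (27.3% and 18.2%). The list had 1 higher and 2 lower without P14 replicate 1, and 1 and 3 without P14 replicate 2. Dio3, which inactivates thyroid hormone, was at 0.679 and 1.77 CPM at P14 and 5.94, 3.84 and 6.33 CPM at P17 (log2 fold change 2.12 ± 0.50, adjusted p = 0.0043). Hr, a corepressor of the thyroid hormone receptor, was at 219.9 and 221 CPM at P14 and 117, 111 and 133 CPM at P17 (log2 fold change -0.88 ± 0.11, adjusted p = 1.35e-05). Dio3 was higher in every P17 library though low in all, and its call was lost without P14 replicate 1. Interferon-responsive genes had 7 of 24 tested genes higher and 1 lower, but 1 was higher without P14 replicate 1 and 2 without P14 replicate 2, and 1 when scaled by library totals. The cell death list had 7 of 22 tested genes higher and 3 lower, with Bad (log2 fold change 1.45 ± 0.17, adjusted p = 4.91e-06) and Bok (log2 fold change 0.93 ± 0.13, adjusted p = 3.78e-05), both of the BCL-2 family, higher, and with 4 higher and 1 lower with either P14 library left out. Microglia and macrophage genes had 2 of 22 tested genes higher and 1 lower, with Cd14 at 0.47 and 0.581 CPM at P14 and 1.55, 1.35 and 2.22 CPM at P17 (log2 fold change 1.68 ± 0.30, adjusted p = 0.000289). Shares higher and lower were 29.2% and 4.17% for interferon, 31.8% and 13.6% for cell death and 9.09% and 4.55% for microglia. Over all tested genes they were 18.3% and 21.9%.

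The largest rises that the naming rule takes include non-coding RNAs and ribosomal protein genes. Yam1, a long non-coding RNA, was at 1623 and 784 CPM at P14 and 44142, 29279 and 64692 CPM at P17 (log2 fold change 5.26 ± 0.65, adjusted p = 8.27e-05) and took, of all counts, 0.181% and 0.0898% at P14 and 4.82%, 2.9% and 6.83% at P17. Rn7sk, the 7SK small nuclear RNA, was at 1.33 and 0.278 CPM at P14 and 26.8, 9.28 and 21.3 CPM at P17 (log2 fold change 4.57 ± 0.79, adjusted p = 0.00101). Lars2, a mitochondrial leucyl-tRNA synthetase, was at 107 and 54.8 CPM at P14 and 1631, 1476 and 2622 CPM at P17 (log2 fold change 4.56 ± 0.65, adjusted p = 0.000273). In these 3 genes every P17 library was far above both P14 libraries. In OIR retina Yam1 took, of all counts, 0.333% and 0.174% at P14 and 3.09%, 2.75% and 1.39% at P17. Whether the reads counted for these 3 genes came from their own transcripts was not tested. Of the 87 tested genes with ribosomal protein symbols, a list made after the data were seen, 69 were higher and 1 lower, with a median of 1.02. Over all tested genes 18.3% were higher and 21.9% lower, and of the shortest transcripts 26.8% were higher, as given below. The part of transcript length in the ribosomal list was not tested. Rpl35 was at 9.79 and 10.9 CPM at P14 and 43.5, 61.8 and 63.2 CPM at P17 (log2 fold change 2.44 ± 0.18, adjusted p = 1.05e-07) and Rpsa at 138 and 139 CPM at P14 and 439, 853 and 468 CPM at P17 (log2 fold change 2.08 ± 0.31, adjusted p = 0.000174). Reads of these genes may be shared with their pseudogenes.

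Among named genes with the largest rises outside that group were Serpine3, a serpin family gene, at 2.3 and 3.54 CPM at P14 and 14, 19.5 and 12.4 CPM at P17 (log2 fold change 2.39 ± 0.56, adjusted p = 0.00524), and the LIM protein Crip1, at 2.66 and 2.48 CPM at P14 and 10.5, 17 and 18.3 CPM at P17 (log2 fold change 2.57 ± 0.51, adjusted p = 0.00208). Serpine3 stood at 1.22 to 1.46 CPM in the P30 libraries, and its call was lost without P14 replicate 1 (log2 fold change 2.11, adjusted p = 0.0566). Among the falls, Leng8 was at 642 and 875 CPM at P14 and 74, 37.3 and 68.7 CPM at P17 (log2 fold change -3.66 ± 0.31, adjusted p = 2.83e-06). Mbd6, a protein with a methyl-CpG-binding domain, was at 277 and 341 CPM at P14 and 38.3, 30.9 and 38.1 CPM at P17 (log2 fold change -3.11 ± 0.15, adjusted p = 3.07e-09). Both were far lower in every P17 library than in either P14 library. Rpgrip1, a scaffold of the photoreceptor cilium that was chosen after its values were seen, was at 1456 and 1883 CPM at P14 and 275, 172 and 251 CPM at P17 (log2 fold change -2.84 ± 0.21, adjusted p = 1.28e-07). Neat1, the RNA scaffold of paraspeckles, also chosen after its values were seen, was at 12.9 and 27.1 CPM at P14 and 2.74, 1.6 and 3.5 CPM at P17 (log2 fold change -2.95 ± 0.34, adjusted p = 1.99e-05). All 7 tested nuclear-retained RNAs, a list made after the data were seen that holds Meg3 and Neat1, were lower (median -2.94). They took, of all counts, 0.248% and 0.29% in control libraries at P14 and 0.0452%, 0.0134% and 0.0373% at P17. In OIR retina the shares were 0.239% and 0.249% at P14 and 0.0242%, 0.027% and 0.0249% at P17. The part of library preparation in this was not tested.

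Direction went with transcript length. Genes were put into 5 equal groups by length. Of the group with the shortest transcripts, up to 1181 nucleotides, 26.8% were higher and 11.5% lower, with a median log2 fold change of 0.28. Of the group with the longest, from 4669 nucleotides, 5.37% were higher and 42.6% lower, with a median of -0.30. Median lengths were 6631.5 nucleotides for the basement membrane list, 6401 for lectican, 5456 for interstitial matrix and 4891.5 for imprinted genes. Over all tested genes the median length was 2666. The falls in these lists are given without a correction for length, and the part of length in them was not tested. Across 18803 genes with a known length the Spearman correlation of the log2 fold change with length was -0.31, and with GC content 0.012. Genes are not independent replicates, and the lengths are those of GENCODE transcripts. OIR retina at P17 against P14 gave -0.28. Control P30 against P17, which shares the P17 libraries with the comparison here, gave -0.031. A correction for length and GC content, added after the data were seen, left 68.5% of the calls. For 114 genes named here that were called and put through the correction, it made the log2 fold change of 29 smaller by over 1.5 times. Of the 29, 25 were still called, among them Bsn (-0.54), Tet3 (-0.55) and Gpr179 (-0.64). Aqp4 and Yam1 are named here but are not among the 114. The labels give no date or batch of library preparation, so age and preparation cannot be told apart, and the part of RNA length or integrity in these results was not tested.

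**Figure D4:**
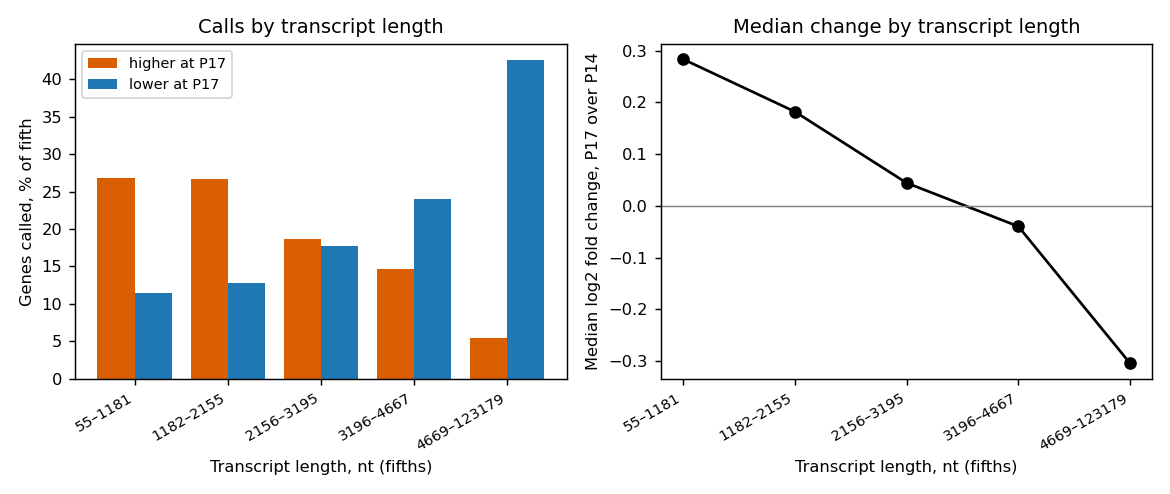
Left, percent of genes in each of 5 groups of transcript length called higher (orange) or lower (blue) at P17. Right, median log2 fold change in each group, falling from 0.28 in the shortest to -0.30 in the longest.

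In OIR retina the same ages differed in 4412 genes higher and 4653 lower (22.2% and 23.4%), from libraries separate from the control ones. Of the 7998 genes called in control retina, 6303 (78.8%) were called in the same direction in OIR, which is 69.5% of the OIR calls. No gene had a change that differed between OIR and control in the edgeR quasi-likelihood test of the difference, with 1698 genes at an unadjusted p under 0.05, while DESeq2 called 125 genes higher and 52 lower and limma-voom called 1 and 0. Guca1a rose by 1.05 in control and by 1.49 in OIR, and Grm6 changed by -1.46 and -1.84. Serpine3 changed by 2.39 in control and 0.25 in OIR (difference -2.14, SE 0.72, adjusted p = 0.418), and Rpe65 by 1.62 and 0.33 (difference -1.29, SE 0.47, adjusted p = 0.457). Cdh5 changed by -0.95 and 0.076 (difference 1.03, SE 0.28, adjusted p = 0.264) and Notch3, a receptor of mural cells, by -0.98 and 0.03 (difference 1.01, SE 0.29, adjusted p = 0.287). The control change of Notch3 lost its call with the length and GC correction (log2 fold change -0.35, adjusted p = 0.0647). None of these differences passed the edgeR quasi-likelihood test.

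**Figure D5:**
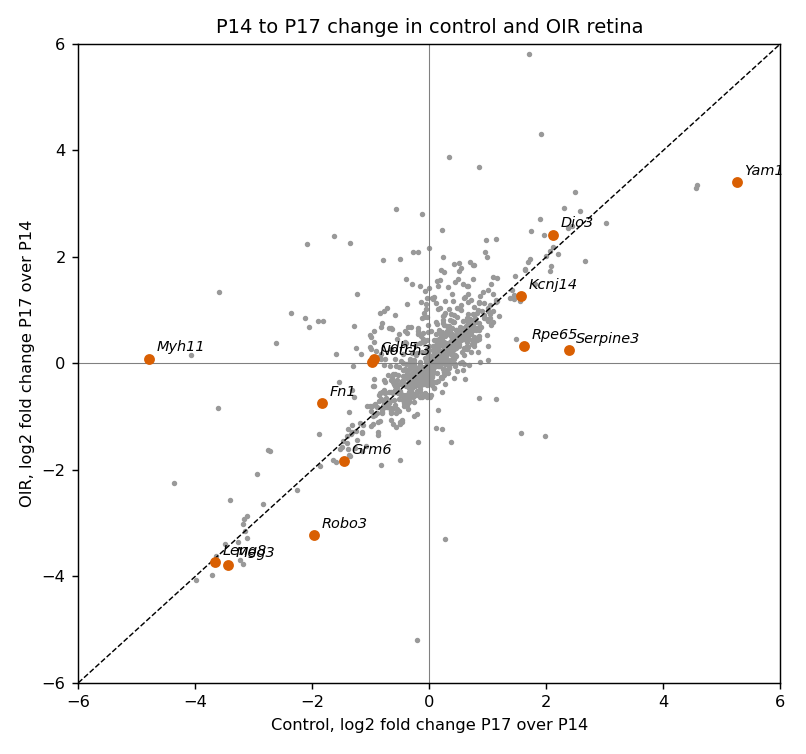
Log2 fold change from P14 to P17 in control retina (x axis) and in OIR retina (y axis) for 857 genes of the lists and the naming rule inside the axes; 26 more lie outside, and sex-linked genes are not drawn. The dashed line marks equal change, and the labelled genes include Meg3, Leng8 and Kcnj14 near the line and Serpine3, Rpe65, Cdh5 and Myh11 away from it.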

How the data were processed

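Counts per gene were deposited by the authors. RNA of dissected retina was taken up with RNeasy and Dynabeads, built into libraries (Ion Total RNA-seq Kit v2) and read on an Ion Proton, per the labels' protocols. Torrent Suite 5.4.0 with its RNASeqAnalysis plugin aligned reads to mm10 with STAR and then Bowtie2 and counted genes with HTSeq and Picard. Aligner versions, annotation and strand setting: not given in the sources used here.

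Counts were tested with edgeR 4.0.16 in R 4.3.3 (TMM scaling, filterByExpr with minimum count 10 and total 15, robust quasi-likelihood fit of all 16 libraries with 10 residual degrees of freedom). Adjusted p-values are Benjamini-Hochberg over 19905 genes, with a threshold of 0.05, and each adjusted p in the text is from this edgeR test unless another tool is named. The standard error (SE) after ± is the size of the change divided by the root of its F statistic. Alternatives were DESeq2 1.42.0, limma 3.58.1, other scalings and filters, a replicate block, covariates, leaving out libraries and a correction for transcript length and GC content. The genes named come from 3 sources. The first is the 15 largest rises and 15 largest falls called with non-overlapping groups and an average of 1 or more on the log2 CPM scale, leaving out lens, sex-linked, muscle, red blood cell and unnamed genes. The second is each of 44 lists, with at most 5 members by p, and the third a fixed set. Genes chosen after their values were seen fall outside this rule and are marked. The values of 1 rod gene are not reported here. Members, lists and rule were chosen with earlier results of these data known. Shares of counts have 95% Wilson intervals, narrow here, and intervals cover counting error only. Transcript length and GC content came from a GENCODE annotation of mm10 and promoter windows from RefSeq (GRCm38.p6). The edgeR test of P17 against P14 was tried on simulated data in which 67, 67 and 66 genes changed by 1.5, 2 and 4-fold. The changed genes were drawn from those with a mean of at least 1 CPM in the control P14 libraries. Counts were simulated with the spread estimated in the same fit. The test recovered 32.8%, 83.6% and 93.9% of the changed genes, and recovery at lower levels was not measured. Of its 151 calls 7.28% were false. Far more genes were called in the real data than were changed there.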

Additional observations from a re-analysis of the deposited data

How the results depend on the processing

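The direction and scale of the main counts held under RLE scaling, DESeq2, limma-voom, fits of 5 or 8 control libraries and the lens and Y-linked covariates. A test against a 1.5-fold change gave 484 genes higher and 1315 lower, an adjusted p under 0.01 gave 2303 higher, and scaling by library totals gave 2464 and 5088. Leaving out a library gave 2234 to 3326 genes higher and 3116 to 3942 lower, with 2410 higher without P14 replicate 1 and 2234 without P14 replicate 2. The correction for length and GC content, added after the data were seen, gave 3589 and 3881, with 24 genes called the other way. For the difference between OIR and control, where edgeR called 0 (1698 at an unadjusted p under 0.05), no count filter gave 449 and 121, DESeq2 125 and 52, limma-voom 1, the 10 libraries alone 6, the lens covariate 8, the Y-linked covariate 1, the length and GC correction 2, and leaving out a library 0 to 42 higher and 0 to 15 lower. The replicate block, by shared numbers that the data do not show to pair libraries (correlations of -0.12 and -0.12), gave 3262 and 3963. Values that changed sign were Crx with library totals (-0.025) and without P17 replicate 2 (-0.012), Gad1 with library totals (-0.034) and on leaving out a library (-0.037 to 0.20), Dct with the lens covariate (0.16), and, on leaving out a library, Dct (-1.77 to 0.74), Pmel (-3.01 to 0.68) and Tyrp1 (-2.78 to 0.63), and, with the length and GC correction, Grin2b (0.27) and Gucy2f (0.11); the cause was not tested. Genes with few counts are measured with more counting error, and how far depth limits them was not tested.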
